A study of Mus musculus with 22 samples.

Results

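The wild-type part of a skin time course was examined here, as a comparison of back skin at postnatal day 14 (P14) with back skin at postnatal day 6 (P6). It holds the 8 arrays titled as wild-type skin of these ages, 5 at P6 and 3 at P14, of 22 arrays in the whole series. The series studied K14-DN-Clim mice, which carry a dominant-negative CLIM protein under the keratin 14 promoter, active in basal keratinocytes, and their wild-type littermates, all of strain CB6F1. All 8 arrays compared came from the wild-type littermates, and the labels name no treatment. The other arrays used below were wild-type skin at P23 (3 arrays), and DN-CLIM skin at P6 (5 arrays) and P14 (3 arrays). Per the series' design text, hair growth is synchronized at these ages, P6 and P14 belong to the formation of the first hair follicles, and P23 is the first telogen, the resting phase. The comparison asks how gene expression in skin changes between an earlier and a later stage of the first growth phase.

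Hair follicles begin to form before birth, and in the first weeks after it they pass through a growth phase, anagen. In anagen, dividing matrix cells at the base of the follicle give rise to the hair shaft and to the inner root sheath that moulds it. Shaft cells fill with hair keratins, cross-linked by keratin-associated proteins. Signals of the hedgehog, Wnt, BMP and FGF families, passed between the epithelium and the dermal papilla beneath it, set how long growth lasts. In the same weeks the dermis lays down collagen, fat cells fill, and the thin muscle layer under the skin passes from developmental to adult myosins.

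Each array gave one MAS5 signal per probe set, and all levels below are log2 of that signal. Of 12422 probe sets that are no array controls, 6211 were bright enough to be tested, and they stand for 4900 genes. Arrays of one age correlated with each other at 0.956 to 0.975 over the probe sets tested, and arrays of different ages at 0.918 to 0.934. The keratinocyte genes Krt1, Krt10 and Lor, the hair keratin Krt31 and the fibroblast genes Col1a1 and Col3a1 were all bright. The probe sets of the basal keratins Krt14 and Krt5 were dim (log2 4.33 to 6.44 for Krt14 on the P6 arrays), so these genes give no check of the label. Probe sets of liver (Alb, Afp), pancreas (Ins2) and lung (Sftpc) genes were all too dim to be tested. Alb read 7.05 to 7.75 on the P6 arrays and Sftpc 7.20 to 7.86, close to the limit of the filter at log2 7.67. Levels near or below this limit may therefore be background, and the size of a change that starts or ends there is uncertain. The skeletal muscle genes Acta1, Ckm, Mylpf and Myh4 were bright too.

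The P6 arrays held signal of both Xist, which is transcribed from the inactive X chromosome of females, and Eif2s3y, a gene of the Y chromosome. Xist was at 8.21 to 9.20 on the 5 P6 arrays, and Eif2s3y at 6.81, 6.999, 6.90, 7.39 and 5.14. At P14, replicates 1 and 2 had Xist at 9.73 and 9.33 with Eif2s3y at 4.74 and 1.70, whereas replicate 3 had Xist at 3.67 and Eif2s3y at 8.33. Whether an array stands for 1 mouse or a pool is not said in the labels. A sex class was set from Xist less the mean of genes of the Y chromosome, Eif2s3y among them. It counts all 5 wild-type P6 arrays as female, so it does not describe their mixed signal. With this class as a covariate, 1264 probe sets passed the threshold. With the Eif2s3y signal as a covariate, an alternative chosen after seeing the data, 1293 did.

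Between P6 and P14, 1290 of 6211 probe sets (20.8%) passed an adjusted p of 0.05 in limma. Of these, 586 (9.43%) rose and 704 (11.3%) fell, and the rises numbered 387 and 386 without P14 replicate 1 and replicate 3. With arrays centred on their medians, 636 rose and 570 fell. Most changes were small: 86 rose and 121 fell by at least 2-fold, and 10 rose and 19 fell by at least 4-fold. The groups did not overlap, with every P14 array above or below every P6 array, at 1148 of the probe sets that passed (18.5% of those tested). Over all probe sets tested, whether they passed or not, the groups did not overlap at 1712 (27.6%). The largest rises and falls named below were chosen among genes without overlap, so for them a lack of overlap adds no evidence. Counted by gene, with the brightest probe set for each, 9.67% rose and 12.1% fell, with a median log2 change of -0.02. These shares are the background for the gene lists described below. P6 arrays 4 and 5 differed from arrays 1 to 3 at 345 probe sets over both genotypes, and at 6 in wild type alone. Fits against part of the P6 arrays hold fewer arrays, and the cause of a lost call was not tested. Against arrays 4 and 5 alone, 22 of the genes described below no longer passed (adjusted p 0.0559 to 0.423): Krt17, Krt27, Krt31, Padi3, Shh, Gli1, Ptch1, Smo, Fst, Cux1, Birc5, Actn3, H2-Ab1, Mrc1, C1qb, Camp, Cdh5, Sox10, Mc1r, Kit, Retn and Scd1. Against arrays 1 to 3 alone, Cdc20, Tyrp1, Pmel and Kit did not (0.0638 to 0.14). In bulk skin, fewer cells of a type and less RNA per cell cannot be told apart.

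**Figure D1:**
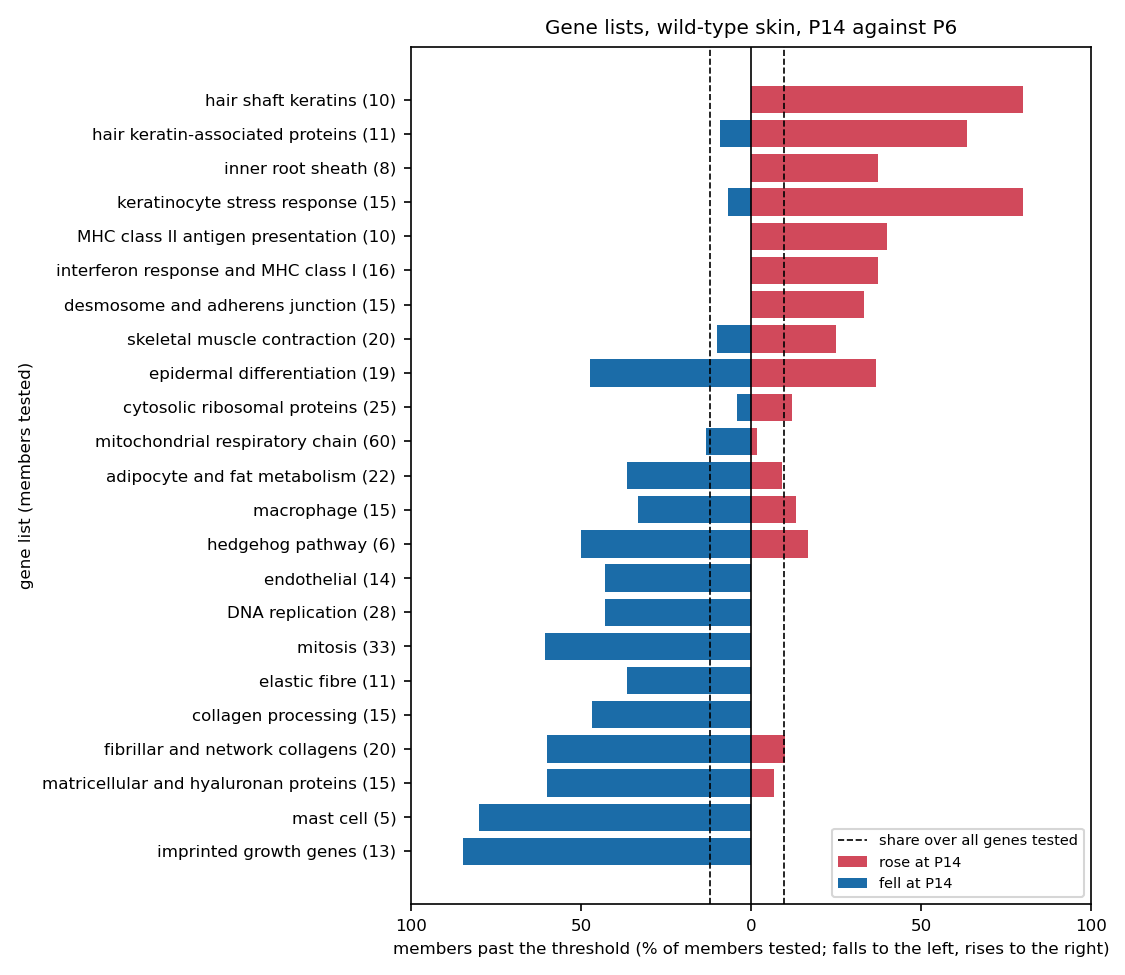
Share of the tested members of 23 gene lists that passed the threshold, with rises at P14 drawn to the right and falls to the left as percentages of the members tested, whose number stands after each name. Dashed lines mark the shares over all genes tested, 9.67% for rises and 12.1% for falls. Keratinocyte stress and hair shaft keratin genes (80% each) lie far on the side of rises, and imprinted growth (84.6%) and mast cell (80%) genes far on the side of falls.

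The promoters of 5 genes are shown first, because each holds a searched motif: Sprr2h and Myh4, the largest rises, Myh8, the developmental myosin that fell as Myh4 rose, and Ccnb2 and Cdc20, mitotic genes that fell. Each sequence is the 250 bases before the RefSeq transcription start in build GRCm38.p6, read 5′ to 3′ on the gene's own strand. Capitals mark a searched motif on either strand. In Sprr2h, Myh4 and Myh8 the letters searched were TATAAA, those of the TATA box, which places the transcription machinery at many strongly regulated genes. In the mitotic genes Ccnb2 and Cdc20 the motifs are the CCAAT box, named by its letters and bound by the factor NF-Y, and the cell cycle homology region (CHR), which is known from promoters of genes expressed in mitosis and was searched as TTTGAA. No match overlaps another in these windows.
Sprr2h, chr3:92385435-92385684, plus strand.
Sprr2h: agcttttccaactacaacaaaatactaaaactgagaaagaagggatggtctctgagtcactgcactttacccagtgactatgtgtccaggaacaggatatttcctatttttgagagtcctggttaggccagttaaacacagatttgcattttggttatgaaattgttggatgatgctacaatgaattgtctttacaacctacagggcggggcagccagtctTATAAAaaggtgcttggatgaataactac
Myh4, chr11:67237562-67237811, plus strand.
Myh4: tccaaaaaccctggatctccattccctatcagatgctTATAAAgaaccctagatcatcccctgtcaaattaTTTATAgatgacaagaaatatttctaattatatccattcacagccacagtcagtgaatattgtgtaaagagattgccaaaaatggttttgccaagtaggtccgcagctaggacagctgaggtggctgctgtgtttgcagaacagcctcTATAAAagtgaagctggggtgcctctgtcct
Myh8, chr11:67276874-67277123, plus strand.
Myh8: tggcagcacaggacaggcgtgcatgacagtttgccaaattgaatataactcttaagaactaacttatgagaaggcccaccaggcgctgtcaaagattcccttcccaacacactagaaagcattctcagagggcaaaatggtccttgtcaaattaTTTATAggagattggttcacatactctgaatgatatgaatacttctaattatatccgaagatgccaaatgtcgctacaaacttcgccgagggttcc
Ccnb2, chr9:70421555-70421804, minus strand.
Ccnb2: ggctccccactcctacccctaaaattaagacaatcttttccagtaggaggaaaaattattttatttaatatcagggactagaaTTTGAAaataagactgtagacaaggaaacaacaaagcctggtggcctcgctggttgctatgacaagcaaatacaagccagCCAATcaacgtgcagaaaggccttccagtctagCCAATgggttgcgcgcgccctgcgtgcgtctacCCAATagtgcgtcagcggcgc
Cdc20, chr4:118437344-118437593, minus strand.
Cdc20: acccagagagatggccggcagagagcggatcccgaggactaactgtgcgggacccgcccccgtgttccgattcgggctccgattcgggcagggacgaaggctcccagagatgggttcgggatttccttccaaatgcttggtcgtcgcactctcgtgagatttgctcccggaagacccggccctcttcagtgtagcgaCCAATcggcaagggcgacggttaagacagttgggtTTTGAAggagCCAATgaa

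Counted from the transcription start, the TATAAA match of Sprr2h begins at position -29 and the nearest one of Myh4 at -31. In Myh8 the only match is TTTATA at -96, which is the motif on the opposite strand. Here and in the shares below, a box or a CHR means a match to the searched letters on either strand. Ccnb2 has 3 CCAAT matches, the nearest at -21, and 1 TTTGAA match at -167, upstream of all 3. In Cdc20 the CHR begins at -18, between CCAAT boxes at -53 and -8. Over all 27025 genes with a promoter in the RefSeq table, windows of this length hold a CCAAT box in 37.5%, a CHR in 18.3% and a TATA box in 14.3%. Among the 3973 tested genes with a promoter there, the shares were 40.5%, 12.9% and 8.78%. Of 33 mitosis genes tested, 25 had a promoter in the table, 20 of them (80%) with a CCAAT box and 14 (56%) with a CHR. The hair shaft keratins, a list that rose, had a CCAAT box in 4 and a CHR in 5 of 6 promoters. A TATA box was present in 8 of 9 promoters of keratinocyte stress genes, 7 of 9 of keratin-associated proteins, 5 of 6 of hair shaft keratins, 7 of 17 of muscle contraction genes, 6 of 16 of epidermal differentiation genes and 1 of 25 of mitosis genes. A match describes these letters only, and its part in the changes was not tested.

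The genes of the hair shaft rose. Of 10 hair shaft keratins tested, 8 rose and 0 fell, with a median log2 change of 0.72. Krt86, a basic hair keratin, stood at 14.58, 14.19, 13.86, 14.56 and 14.64 on the P6 arrays and 15.47, 15.67 and 15.64 on the P14 arrays. Each P14 array lay above each P6 array, a 2.34-fold rise (log2 change 1.23, SE 0.17, adjusted p = 1.65e-05). Krt84 rose 2.67-fold from 8.18 ± 0.10 (SD, n = 5) to 9.60 ± 0.05 (SD, n = 3), Krt81 1.64-fold and Krt31 1.75-fold (adjusted p = 0.000967 and 0.00636). The 2 that did not pass were Krt35 and Krt36, with log2 changes of 0.31 and -0.09. The summed signal of the 10 keratins was 99195 to 160724 on the P6 arrays and 208405 to 240231 on the P14 arrays.

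Of 11 keratin-associated proteins, the cross-linkers of the shaft, 7 rose, 1 fell and 3 did not pass, with a median of 0.64. Krtap9-1, already bright at P6, stood at 14.26, 13.73, 13.96, 14.29 and 14.33 on the P6 arrays and 15.61, 15.83 and 15.70 on the P14 arrays. That is a 3.02-fold rise with no overlap (log2 change 1.60, SE 0.18, adjusted p = 8.44e-07). Krtap5-4 rose 3.08-fold, Krtap12-1 3.03-fold and Krtap14 2.22-fold. The member that fell was Krtap6-3, a glycine- and tyrosine-rich protein, at 10.64, 10.72, 9.96, 9.999 and 10.48 on the P6 arrays and 8.32, 9.07 and 8.80 on the P14 arrays (log2 change -1.63, SE 0.29, adjusted p = 0.000321). Its P14 values lay below every P6 value, whereas Krtap6-2, of the same subfamily, had a log2 change of 0.31 that did not pass. Genes of this family, and hair keratins such as Krt81 and Krt86, have near-identical copies whose transcripts one probe set may share, so single members are uncertain.

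In the inner root sheath, 3 of 8 genes tested rose, 0 fell and all 8 changes were positive, with a median of 0.56. Krt72, a keratin of the sheath cuticle, had the largest, with levels of 12.08, 12.07, 11.99, 12.06 and 12.26 on the P6 arrays and 13.95, 14.14 and 14.12 on the P14 arrays (log2 change 1.98, SE 0.12, adjusted p = 9.49e-11). Krt27, a type I keratin of all sheath layers, rose 1.62-fold, and Padi3, an enzyme that converts arginine of trichohyalin to citrulline, 1.67-fold (adjusted p = 0.0151, and 0.0968 without P14 replicate 1). Krt71, the partner of Krt27, had a log2 change of 0.49 that did not pass. At P23 Krt86 stood at 9.48, 9.41 and 8.79 and Krt72 at 7.53, 7.64 and 7.35. Krt84 was closer to its P6 level (mean 7.41 at P23 and 8.18 at P6), and the means of Gata3, a transcription factor of the inner root sheath, were 10.99, 11.06 and 10.95 at P6, P14 and P23.

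**Figure D2:**
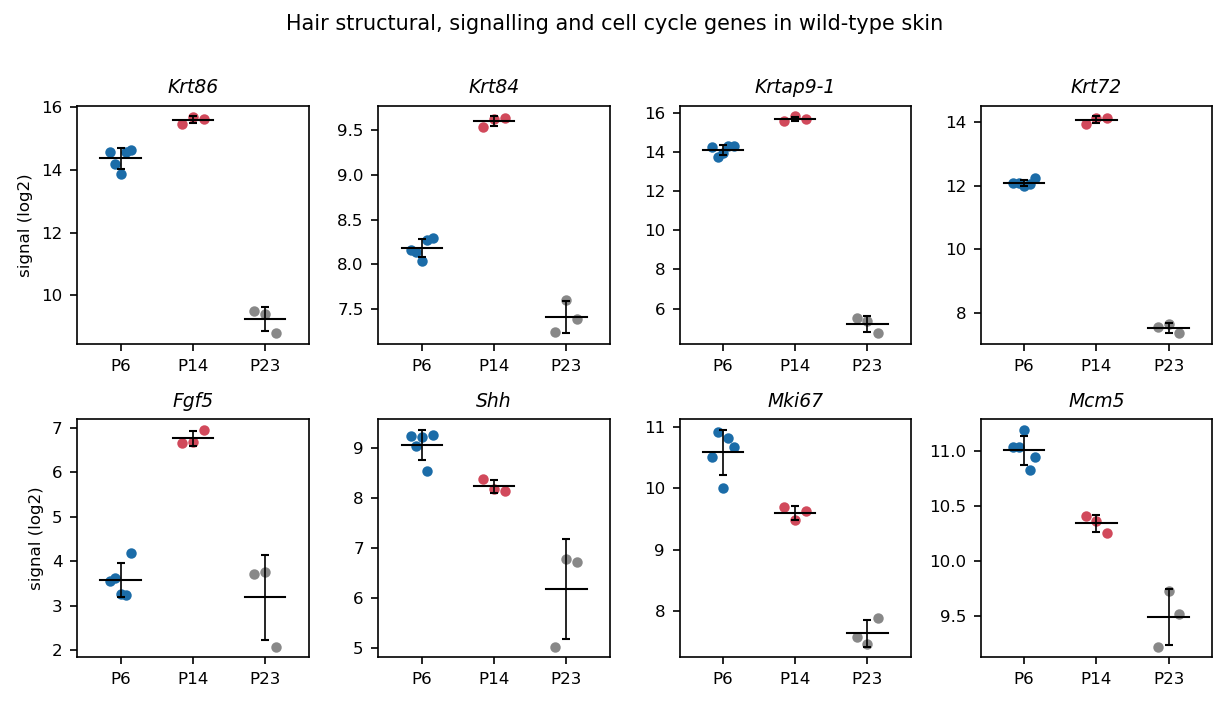
Log2 signal of 8 genes on each wild-type array at P6 (5 arrays), P14 (3) and P23 (3), with points for arrays, bars for group means and error bars for 1 SD; axes do not start at 0. Krt86, Krt84, Krtap9-1, Krt72 and Fgf5 lie higher at P14 than at P6, and Shh, Mki67 and Mcm5 lower, on every array.

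Among the signals that direct the follicle, 3 of 6 hedgehog genes tested fell and 1 rose. Shh, the ligand made by matrix cells, stood at 9.25, 9.03, 9.21, 8.53 and 9.25 on the P6 arrays and 8.39, 8.17 and 8.13 on the P14 arrays. The groups do not overlap, but the difference was close to the threshold (log2 change -0.83, SE 0.29, adjusted p = 0.0446). It was lost when any of 7 of the 8 arrays was left out (adjusted p 0.0683 to 0.133, the exception being P6 replicate 4), under quantile normalization (0.053), with arrays centred on their medians (0.0559) and without the filter on dim probe sets (0.0755). Gli1, a transcription factor and target of the pathway, fell 1.71-fold (adjusted p = 0.0056, and 0.0746 without P14 replicate 1). Ptch1, the receptor and also a target, fell 1.34-fold (adjusted p = 0.0194, and 0.084 and 0.0821 without P14 replicate 1 and replicate 3), while another probe set of Ptch1 had a change of 0.12 that did not pass. Smo, the transducer that Ptch1 inhibits, rose 1.39-fold (adjusted p = 0.0096, and 0.0586 without P14 replicate 1).

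Fgf5, the factor known to end the growth phase of the hair cycle, was too dim to be among the probe sets tested. Its levels were 3.57, 3.61, 3.26, 3.24 and 4.19 on the P6 arrays and 6.65, 6.68 and 6.96 on the P14 arrays, and 3.72, 3.76 and 2.08 at P23. Every P14 array lay above every other wild-type array. In the fit over all 12422 probe sets, where 1267 (10.2%) passed, the rise passed too (adjusted p = 2.6e-05). A signal this low may be background, and the log2 change ran from 1.35 with 50 added to every signal to 3.34 without P6 replicate 5, so no size is given.

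Of 20 Wnt pathway genes, 2 rose and 2 fell (10% each), close to the shares over all genes. Sfrp2, a secreted Wnt modulator, fell 3.39-fold, with levels of 9.83, 9.57, 9.39, 9.16 and 9.001 on the P6 arrays and 7.84, 7.72 and 7.32 on the P14 arrays (log2 change -1.76, SE 0.21, adjusted p = 2.55e-06), and Fzd3, a Wnt receptor, rose 1.9-fold. Of 17 BMP and activin genes, 2 rose (11.8%, against 9.67% over all genes) and 4 fell (23.5%, against 12.1%). Bmp2, a ligand, rose 1.86-fold (adjusted p = 0.00369). Fst, which binds activin and BMPs, fell 1.54-fold (adjusted p = 0.0069, and 0.0828 without P14 replicate 2), Fstl1 fell 2.11-fold, and Id3, a BMP target, fell 1.6-fold (adjusted p = 0.0179, and 0.0841 without P14 replicate 2). Fgfr1, a receptor for FGFs, fell 1.97-fold (adjusted p = 7e-05). Of 15 regulators of the hair matrix, 2 rose and 2 fell (13.3% each), close to the 9.67% and 12.1% over all genes. The rises were Foxq1, needed for a normal hair medulla (1.62-fold, adjusted p = 0.0133, and 0.0513 and 0.073 without P14 replicate 2 and replicate 3), and Cux1 (1.28-fold, adjusted p = 0.00824, and 0.089 without P14 replicate 3).

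Many genes of cell division fell. Of 33 mitosis genes tested, 20 fell and 0 rose, with a median log2 change of -0.55, and 32 of the 33 changes were negative. Mki67, a nuclear protein of cycling cells, stood at 10.50, 10.92, 9.9999, 10.82 and 10.67 on the P6 arrays and 9.70, 9.48 and 9.63 on the P14 arrays. All P14 arrays lay below all P6 arrays (1.98-fold lower, log2 change -0.98, SE 0.20, adjusted p = 0.000941). Kif23, a kinesin of cytokinesis, fell 1.95-fold, Birc5, the survivin gene, 1.91-fold, and Smc2, of the condensin complex, 1.88-fold. Aurkb, a mitotic kinase, fell 4.35-fold with a wide spread at P14, where replicate 1 was at 8.37 and the others at 6.25 and 6.52 (adjusted p = 0.000167). The lower P14 signals of Aurkb may be background, and its log2 change ran from -2.78 to -1.72 over the alternatives. Ccnb2, a mitotic cyclin, fell 1.43-fold (adjusted p = 0.000772). Cdc20, an activator of the anaphase-promoting complex, fell 1.37-fold with groups that overlap (adjusted p = 0.0185, and 0.115 and 0.0576 without P14 replicate 2 and replicate 3). Top2a had a log2 change of -0.32 that did not pass (adjusted p = 0.164).

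Of 28 DNA replication genes, 12 fell and 0 rose, with a median of -0.34. Mcm5, a subunit of the replicative helicase, stood at 11.04, 11.04, 11.20, 10.83 and 10.95 on the P6 arrays and 10.41, 10.37 and 10.26 on the P14 arrays (log2 change -0.66, SE 0.13, adjusted p = 0.001), again with no overlap. Mcm7 fell 1.63-fold, Pcna, the sliding clamp, 1.65-fold, and Tk1, a thymidine kinase of S phase, 1.59-fold. Pold2, a subunit of DNA polymerase delta, fell 3.94-fold (adjusted p = 1.73e-05). Ccnd1, the G1 cyclin D1, fell 2.14-fold, from 10.94 ± 0.18 (SD, n = 5) to 9.84 ± 0.30 (SD, n = 3) (adjusted p = 7.75e-05). Among housekeeping genes, 3 of 25 ribosomal protein genes rose (12%) and 1 fell (4%). Of 60 respiratory chain genes, 1 rose (1.67%) and 8 fell (13.3%). The background was 9.67% for rises and 12.1% for falls, so the ribosomal falls and the respiratory chain rises were below it. Of 34 proteasome genes 1 rose and 0 fell.

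Epidermal differentiation genes moved in both directions, with 9 falls and 7 rises among 19 tested. Krt1, the major keratin above the basal layer, showed the largest fall of all genes tested, with levels of 14.32, 14.21, 14.28, 14.15 and 14.25 on the P6 arrays and 9.94, 9.80 and 9.92 on the P14 arrays. The groups lie far apart, a 20.5-fold fall (log2 change -4.36, SE 0.16, adjusted p = 1.74e-14). Flg, which gives rise to filaggrin of the granular layer, stood at 13.95, 13.48, 13.76, 14.13 and 14.40 on the P6 arrays and 10.18, 10.72 and 10.59 on the P14 arrays, a 10.9-fold fall (log2 change -3.45, SE 0.17, adjusted p = 3.44e-12). Krt10, the partner of Krt1, fell 3.08-fold, from 14.72 ± 0.46 (SD, n = 5) to 13.10 ± 0.09 (SD, n = 3), and its P6 arrays 4 and 5 (15.25 and 15.22) stood above the other P6 arrays. Lor, the main protein of the cornified envelope, fell 2.33-fold, Casp14, a protease that processes filaggrin, 6.37-fold, and Calm4, a calcium-binding protein of keratinocytes, 3.6-fold. Hal, which makes urocanic acid from histidine in the epidermis, fell 4.11-fold, and Serpina12, the serpin vaspin, 5.51-fold.

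The rises were led by Krt77, a keratin of suprabasal epidermis and sweat ducts, at 10.09, 10.18, 10.003, 10.20 and 10.48 on the P6 arrays and 12.36, 12.22 and 12.23 on the P14 arrays (log2 change 2.08, SE 0.15, adjusted p = 7.82e-10). Tgm3, a transglutaminase of the hair follicle and epidermis, rose 2.32-fold. Of 13 genes of basal keratinocytes and their anchorage 3 rose (23.1%, against 9.67% over all genes) and 2 fell (15.4%, against 12.1%). Col17a1, a collagen of hemidesmosomes, rose 1.42-fold. At P23 Krt1 stood at 12.07, 12.58 and 12.75, between its P6 and P14 levels, whereas Krt77 was higher than at either age (13.61, 13.64 and 13.58) and Tgm3 lower (6.34, 6.54 and 6.76).

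**Figure D3:**
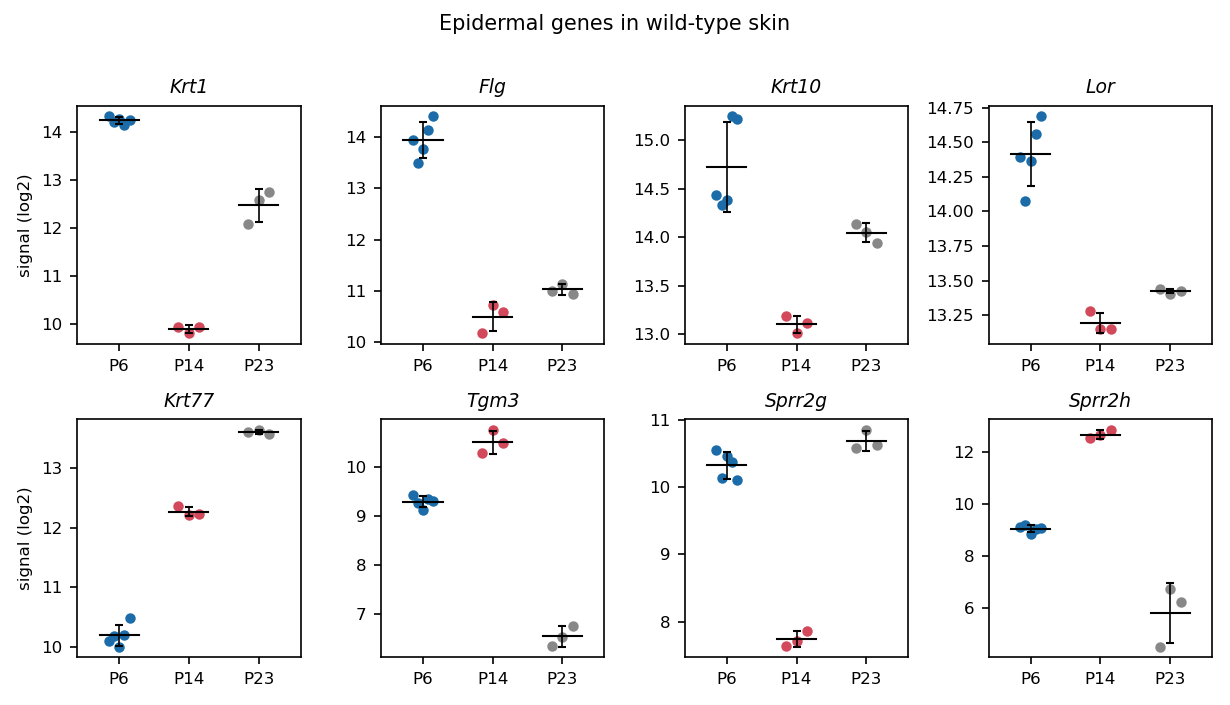
Log2 signal of 8 epidermal genes on each wild-type array at P6, P14 and P23, with points for arrays, bars for group means and error bars for 1 SD; axes do not start at 0. Krt1, Flg, Krt10, Lor and Sprr2g lie lower at P14 than at P6 on every array, and Krt77, Tgm3 and Sprr2h higher.

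Genes that keratinocytes switch on under stress, and that several follicle layers express in normal skin, rose in 12 of 15 cases and fell in 1, with a median of 0.68. Sprr2b and Sprr2d did not pass, with log2 changes of 0.53 and 0.30. Sprr2h, a small proline-rich protein of the cornified envelope, stood at 9.13, 9.21, 8.84, 9.03 and 9.07 on the P6 arrays and 12.52, 12.64 and 12.84 on the P14 arrays. This 12.2-fold rise was among the largest (log2 change 3.61, SE 0.37, adjusted p = 2.74e-07), and the level at P23 was 4.54, 6.75 and 6.23. The member that fell was Sprr2g, a close relative, with levels of 10.56, 10.13, 10.46, 10.38 and 10.11 on the P6 arrays and 7.64, 7.71 and 7.86 on the P14 arrays (log2 change -2.59, SE 0.17, adjusted p = 2.08e-10) and no overlap. Krt16 rose 3.54-fold, Krt6a 2.15-fold and Krt17 1.56-fold, keratins of the follicle's outer sheath and companion layer and of wounded epidermis. S100a8, a calcium-binding protein of keratinocytes and neutrophils, rose 4.06-fold (adjusted p = 1.56e-06), while Camp, a neutrophil granule gene, had a log2 change of -1.36 (adjusted p = 0.0254) with groups that overlap, a call lost without P6 replicate 3 (0.0501) and P14 replicate 2 (0.261). Members of the Sprr2 family are near-identical, so a probe set may detect more than one of them.

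Of 15 desmosome and adherens junction genes, 5 rose and 0 fell. Dsc2, a desmosomal cadherin, stood out at 8.37, 8.48, 7.90, 8.08 and 8.44 on the P6 arrays and 10.48, 10.54 and 10.22 on the P14 arrays (log2 change 2.16, SE 0.18, adjusted p = 1.21e-08). Other large rises were Car6, a secreted carbonic anhydrase (6.49-fold), Fcgbp, a mucin-like secreted protein (4.95-fold), Acpp, an acid phosphatase (3.28-fold), Mxd1, a partner of Max that opposes Myc (2.89-fold), Clu, the chaperone clusterin (2.78-fold), Alox12e, an epidermal lipoxygenase (2.78-fold), Bcl6, a transcriptional repressor (2.75-fold), Defb1, a defensin (2.75-fold), and Abca1, a cholesterol exporter (2.71-fold). All had groups that do not overlap, which the rule for naming the largest rises requires. Car6, Clu and Mxd1 were lower at P23 than at P6 in every array, and Fcgbp, Bcl6 and Abca1 were at least as high as at P14 on each array.

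Imprinted genes that promote or restrain growth before and after birth fell in 11 of 13 cases, with 0 rises and a median of -1.59. The others, Nnat and Igf2r, had log2 changes of -0.27 and -0.11. The 11 falls include Dcn (log2 change -0.50), a proteoglycan gene that also belongs with those of the dermal matrix below. Dlk1, a membrane protein of immature cells, stood at 11.84, 11.82, 11.57, 11.26 and 11.34 on the P6 arrays and 9.45, 9.11 and 9.13 on the P14 arrays. All P14 arrays lay far below the P6 arrays (5.04-fold lower, log2 change -2.33, SE 0.16, adjusted p = 7.82e-10). Igf2, a fetal growth factor, fell 3.39-fold, from 13.67 ± 0.15 (SD, n = 5) to 11.91 ± 0.17 (SD, n = 3) (adjusted p = 2.08e-10). Meg3, a long non-coding RNA transcribed from the Dlk1 locus, stood at 12.20, 11.84, 11.93, 11.64 and 11.51 on the P6 arrays and 7.02, 8.97 and 7.05 on the P14 arrays, so P14 replicate 2 was higher than the other P14 arrays (log2 change -4.15, SE 0.31, adjusted p = 2.86e-09). Another probe set of Meg3 gave a smaller fall, with a log2 change of -1.79. Cdkn1c, a CDK inhibitor, fell 3.41-fold, Mest 3.04-fold, Ndn 3.04-fold, Peg3 3.02-fold and Grb10, an inhibitor of insulin and IGF receptors, 1.86-fold with overlapping groups.

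The IGF-binding protein Igfbp2 fell 2.89-fold, from 11.14 ± 0.23 (SD, n = 5) to 9.61 ± 0.14 (SD, n = 3), while Igf1 and Igf1r had log2 changes of 0.17 and 0.00. Of 10 other genes known from fetal and neonatal tissue, 5 fell and 0 rose. They included Mdk, the growth factor midkine (3.14-fold), and the transcription factors Twist1 (2.84-fold) and Twist2 (4.88-fold), which act in mesenchyme. Twist2 stood at 10.53, 10.26, 10.52, 10.24 and 10.31 on the P6 arrays and 7.52, 9.17 and 7.57 on the P14 arrays, with P14 replicate 2 above the other P14 arrays, and at 10.38, 10.45 and 10.39 at P23, in the range of P6. Dlk1 stood at 9.44, 9.84 and 9.39 at P23, and Igf2 at 11.80, 11.80 and 11.29, both below every P6 array. Meg3 stood at 11.44, 10.76 and 10.53 at P23, above every P14 array. Ndn was at 9.29, 9.76 and 9.92 and Dcn, the proteoglycan decorin, which fell 1.41-fold from P6 to P14, at 14.02, 13.79 and 13.87, both above every P6 array.

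Many genes of the dermal matrix fell. Of 20 fibrillar and network collagens tested, 12 fell and 2 rose, with a median of -0.66. Col6a2, a chain of the microfibrillar collagen VI, stood at 12.10, 12.20, 12.13, 12.08 and 11.78 on the P6 arrays and 10.15, 10.58 and 10.41 on the P14 arrays (log2 change -1.68, SE 0.12, adjusted p = 7.82e-10). Col6a3 fell 2.54-fold, Col5a2 2.02-fold and Col3a1, of the reticular fibres, 1.63-fold. Col1a1, the main collagen of skin, had a log2 change of -0.18 that did not pass (adjusted p = 0.411), with P14 values of 14.46, 14.71 and 14.64 inside the P6 range. Under quantile normalization its change was -0.38 and passed (adjusted p = 0.0103). The rises were Col18a1 (0.32) and Col17a1 (0.50), the latter made by keratinocytes.

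Of 15 genes that process collagen, 7 fell and 0 rose, among them Lox, which cross-links collagen and elastin (2.16-fold), and Serpinh1, the collagen chaperone (1.95-fold). Of 11 elastic fibre genes 4 fell, with Mfap2 at 2.18-fold (adjusted p = 2.6e-06). Lumican, a small proteoglycan that binds collagen, is encoded by Lum, which stood at 11.86, 11.87, 11.81, 11.60 and 11.69 on the P6 arrays and 10.36, 10.04 and 10.39 on the P14 arrays (log2 change -1.51, SE 0.14, adjusted p = 4.58e-08). Bgn fell 1.69-fold at its brightest probe set, while another had a change of -0.19 that did not pass. Of 15 matricellular genes 9 fell and 1 rose: Vcan, the proteoglycan versican of young dermis and the dermal papilla, fell 3.06-fold, Ccn3 fell 2.96-fold, and Ccn2 rose 2.18-fold. At P23 Lum stood at 12.49, 12.58 and 12.65, above every P6 array, and Col6a2 at 11.96, 12.13 and 12.17, within the P6 range. The hair shaft keratins, whose summed signal rose in the same arrays, moved against these genes, and the part of tissue composition was not tested.

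In the muscle of the skin, the myosin heavy chains exchanged. Myh8, the perinatal form, stood at 10.33, 10.36, 10.39, 10.61 and 10.51 on the P6 arrays and 8.14, 8.45 and 8.18 on the P14 arrays, a 4.55-fold fall (log2 change -2.19, SE 0.21, adjusted p = 8.19e-08). Myh4, the form of the fastest adult fibres, stood at 8.78, 8.77, 7.78, 8.60 and 8.10 on the P6 arrays and 12.19, 12.14 and 11.72 on the P14 arrays, a 12.2-fold rise (log2 change 3.61, SE 0.36, adjusted p = 1.66e-07), and at 14.27, 13.85 and 14.000 at P23. Neither pair of groups overlaps. Myh1, the fast form of type IIX fibres, rose 3.78-fold (adjusted p = 4.63e-12). Myh3, the embryonic form, was too dim to be tested, with levels of 6.01, 6.30, 6.54, 6.90 and 6.93 on the P6 arrays and 2.98, 4.10 and 2.99 on the P14 arrays. In the fit over all probe sets the fall passed (adjusted p = 0.00209). The P14 signals may be background, and the log2 change ran from -1.24 with 50 added to every signal to -3.56 against P6 arrays 4 and 5 alone, so no size is given.

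Most other genes of contraction did not pass: of 20 tested, 5 rose and 2 fell, with a median of 0.09. The skeletal actin Acta1 stood at 13.77 ± 0.14 (SD, n = 5) and 13.80 ± 0.10 (SD, n = 3), with a log2 change of 0.03 (adjusted p = 0.879) whose sign turned under some alternatives. The summed signal of the 20 genes was 36967 to 41340 at P6 and 44135 to 50007 at P14. Tpm1, a tropomyosin, rose 1.88-fold, Atp2a1, the calcium pump of fast fibres, 1.83-fold, and Actn3, an actinin of fast fibres, 1.56-fold (adjusted p = 0.0111, and 0.0788 and 0.0568 without P14 replicate 1 and replicate 2). Ncam1, an adhesion molecule of immature muscle and nerve, fell 2-fold. Car3, a carbonic anhydrase of slow muscle and fat, fell 3.21-fold (adjusted p = 1.94e-06).

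**Figure D4:**
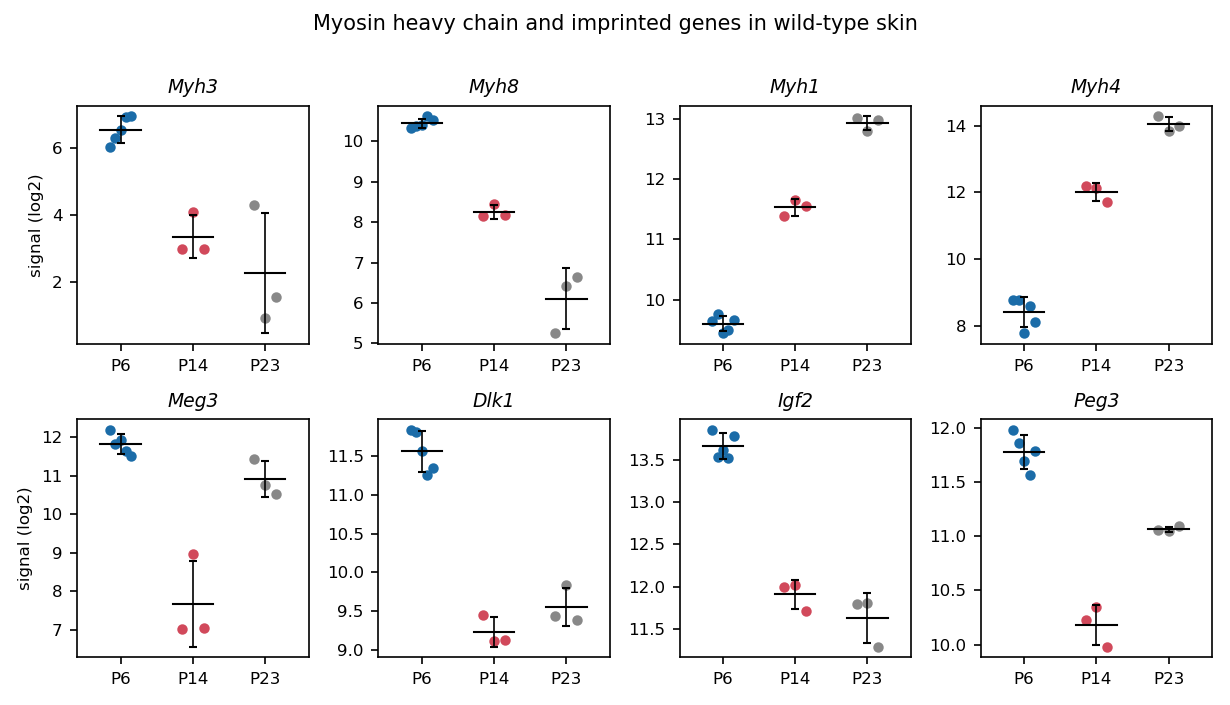
Log2 signal of 4 myosin heavy chain genes and 4 imprinted genes on each wild-type array at P6, P14 and P23, with points for arrays, bars for group means and error bars for 1 SD; axes do not start at 0. Myh3 and Myh8 lie lower at P14 than at P6 on every array, Myh1 and Myh4 higher, and Meg3, Dlk1, Igf2 and Peg3 lower.

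Of 10 genes of MHC class II antigen presentation, 4 rose and 0 fell, with a median of 0.70. Cd74, the invariant chain, stood at 10.65, 10.63, 10.40, 10.05 and 10.38 on the P6 arrays and 11.91, 11.32 and 11.26 on the P14 arrays (log2 change 1.08, SE 0.22, adjusted p = 0.00113), with P14 replicate 1 the highest. H2-Aa rose 1.96-fold and H2-Ab1 1.59-fold (adjusted p = 0.0096, and 0.062 without P14 replicate 1). Of 16 interferon and class I genes, 6 rose and 0 fell, among them H2-D1 at 2.47-fold and H2-K1 at 1.82-fold. These class I genes have near-identical copies, and another H2-D1 probe set had a change of 0.30 that did not pass. Ccl8, a chemokine for monocytes, rose 3.46-fold, from 7.12 ± 0.35 (SD, n = 5) to 8.92 ± 0.20 (SD, n = 3) (adjusted p = 0.000481).

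Of 15 macrophage genes, 2 rose and 5 fell by their brightest probe sets, and the groups overlap for all 5 falls, of which C1qb is one. Laptm5 and Emb rose (1.42-fold and 1.74-fold), and Mrc1, the mannose receptor of resident macrophages, fell 1.86-fold (adjusted p = 0.0153, and 0.176 without P14 replicate 3 and 0.0544 with only the arrays compared). For C1qb, a complement chain, 2 probe sets passed in opposite directions (log2 changes -0.72 and 0.75), so no direction is given for it. The mast cell genes fell in 4 of 5 cases, with a median of -0.80. Among the 4 is Kit (adjusted p = 0.0467), whose call depends on single arrays, as given with the melanocyte genes below. Cma1, a mast cell chymase, stood at 11.47, 11.55, 11.37, 10.61 and 10.73 on the P6 arrays and 9.89, 9.61 and 9.58 on the P14 arrays (log2 change -1.45, SE 0.21, adjusted p = 2.07e-05), and Cpa3, a carboxypeptidase of the same granules, fell 2.52-fold. The summed signal of the 5 mast cell genes was 5365 to 7732 at P6 and 3136 to 3940 at P14. Of 6 lymphocyte genes tested, 0 passed in limma, and 1 had an unadjusted p under 0.05.

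Of 14 endothelial genes, 6 fell and 0 rose. Sox18, a transcription factor of endothelium and also of the dermal papilla, stood at 9.62, 9.53, 9.60, 9.35 and 9.63 on the P6 arrays and 8.45, 8.14 and 8.08 on the P14 arrays (log2 change -1.32, SE 0.13, adjusted p = 2.27e-07). Cldn5, of endothelial tight junctions, fell 1.85-fold, Cd93 1.81-fold and Cdh5, the endothelial cadherin, 1.71-fold, while Pecam1 had a log2 change of 0.25. Among adipocyte genes, 8 of 22 fell and 2 rose. Adipoq, the hormone adiponectin, stood at 12.03, 12.28, 12.20, 11.85 and 12.09 on the P6 arrays and 10.74, 10.45 and 10.62 on the P14 arrays (log2 change -1.48, SE 0.12, adjusted p = 6.98e-09), Retn, resistin, fell 2.47-fold, and Lpl, which takes up fatty acids from lipoproteins, 2.26-fold. Fabp4 and Lep, also of fat cells, had log2 changes of 0.32 and 0.40. Scd1, a desaturase of fat and sebaceous gland, rose 1.42-fold (adjusted p = 0.0139, and 0.125 without P14 replicate 1).

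Of 7 melanocyte genes tested, 2 rose and 3 fell. Tyrp1, an enzyme of eumelanin synthesis, and Pmel, of the melanosome matrix, rose 2.2-fold and 1.52-fold (adjusted p = 0.0303 and 0.0256). Tyrp1 stood at 9.22, 10.12, 9.98, 8.51 and 8.74 on the P6 arrays and 10.26, 10.74 and 10.34 on the P14 arrays. The P6 arrays are spread widely, with arrays 4 and 5 the lowest, and against P6 arrays 1 to 3 alone neither rise passed, nor did that of Tyrp1 without the filter on dim probe sets (0.0517). Leaving out any of 6 arrays ended the call of Tyrp1 (adjusted p 0.0522 to 0.127, all but P6 replicates 2 and 3), and leaving out any of 5 that of Pmel (0.0502 to 0.0984, P6 replicates 4 and 5 and each P14 array). Mc1r, the melanocortin receptor of melanocytes, fell 1.48-fold (adjusted p = 0.014, and 0.109 without P14 replicate 1). Kit, a receptor of melanocytes and mast cells, fell 1.34-fold (adjusted p = 0.0467), a call lost without any of 6 arrays (0.0513 to 0.156, all but P6 replicates 2 and 4), under quantile normalization (0.0585), with arrays centred on their medians (0.0762) and without the filter on dim probe sets (0.0804). Sox10, a transcription factor of melanocytes and Schwann cells, fell 1.35-fold (adjusted p = 0.012, and 0.0709 without P14 replicate 2). Of the clock genes, 2 of 12 rose (16.7%, against 9.67% over all genes): Per1 2.41-fold and Tef 1.45-fold.

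Several large falls belong to no list. H1f10, a linker histone, stood at 9.82, 9.88, 9.78, 8.65 and 8.76 on the P6 arrays and 6.37, 6.31 and 5.84 on the P14 arrays (log2 change -3.20, SE 0.31, adjusted p = 1.17e-07), with P6 arrays 4 and 5 below the other P6 arrays and still above P14. The P14 signals of H1f10 may be background, and its log2 change ran from -3.66 to -2.53 over the alternatives. Rbp4, the retinol carrier, fell 6.11-fold with P14 values of 7.15, 4.80 and 6.09, a wide spread. These P14 signals may be background too, and the log2 change of Rbp4 ran from -3.18 to -1.89 over the alternatives. Npl, an enzyme that breaks down sialic acid, fell 5.76-fold (adjusted p = 9.49e-11), and Nnmt, which methylates nicotinamide, 4.2-fold (adjusted p = 5.17e-07).

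The age change was also measured in DN-CLIM skin. Its arrays enter the wild-type comparison through the estimate of spread that all groups share, the filter on dim probe sets and the choice of the brightest probe set. With only the arrays compared, 1334 probe sets passed in wild type, 1139 of them among the 1290. In DN-CLIM skin 1664 probe sets (26.8%) passed. Of the 1290 that passed in wild type, 876 (67.9%) passed in the same direction in DN-CLIM skin, which is 52.6% of the DN-CLIM calls. The sign was the same for 1254 (97.2%), against 77.2% of all probe sets tested. Krt1 had log2 changes of -4.36 in wild type and -4.42 in DN-CLIM, Sprr2h 3.61 and 3.57, Myh4 3.61 and 4.15, and Dlk1 -2.33 and -2.54.

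The change differed between the genotypes at 1 probe set (0.0161%) in limma, and at 416 before adjustment. That gene, Sft2d1, whose product acts in vesicle transport, fell in wild type (log2 change -0.72, adjusted p = 0.0139) and rose in DN-CLIM (1.03, adjusted p = 0.000706). The difference was -1.74 (adjusted p = 0.023), and the count of such probe sets was 0 without wild-type P6 replicate 1, 2 or 3, wild-type P14 replicate 3, DN-CLIM P6 replicate 1 or 4, or DN-CLIM P14 replicate 2 or 3. The next lowest adjusted p of a difference was 0.225. For Meg3 the brightest probe set had log2 changes of -4.15 in wild type and -2.04 in DN-CLIM, and the difference did not pass.

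**Figure D5:**
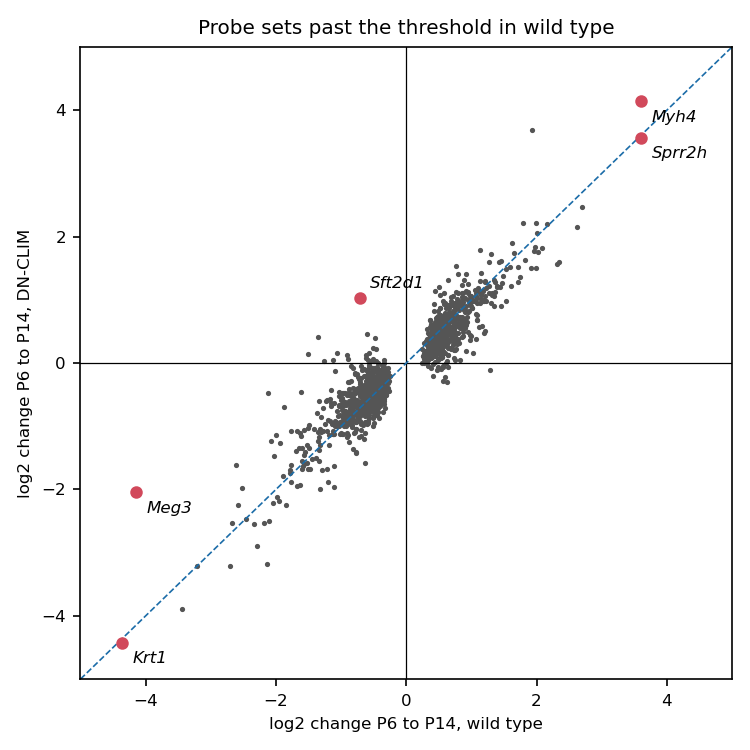
Log2 change from P6 to P14 in wild-type skin (x axis) and DN-CLIM skin (y axis) of the 1290 probe sets that passed the threshold in wild type, 1 point each, with 5 genes named and a dashed line where both changes are equal. The sign is the same for 1254 points, and Sft2d1 lies apart at -0.72 and 1.03.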

How the data were processed

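Back skin RNA was isolated with TRIzol and RNeasy columns and biotin-labelled, per the labels' protocols. The authors deposited 1 intensity per probe set and array, a linear signal made with MAS5 per the submitters' processing notes, with no version given. The 2% trimmed mean was 500.2 to 500.3 on every array, so arrays had been scaled alike before they were deposited. Gene symbols came from the platform annotation: 10833 of the 12422 non-control probe sets had 1 gene, 396 several and 1193 none, and only the first were named.

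From these values log2 signals were computed with no pseudocount and no further scaling, since array medians (7.56 to 7.80) differed by less than 0.3. Probe sets with a mean at or above the median (log2 7.67, signal 203) were tested with limma 3.58.1 in R 4.3.3 over all 22 arrays, 1 mean per group, with a variance trend and Benjamini-Hochberg adjustment at 0.05. The script was tested on simulated data. All adjusted p-values are limma's, and they measure the spread between arrays. The number of arrays limits the precision. For the dim genes Fgf5 and Myh3 the same fit was used without the filter.

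Named genes were up to 25 largest rises and 25 largest falls whose groups do not overlap, up to 6 per list by smallest p, and Krt14, Krt5, Krt10, Lor, Col1a1, Col3a1, Igf2, H19, Dlk1, Shh, Mki67, Top2a, Fgf5, Myh3, Myh8, Myh4, Cd74 and Adipoq, each at its brightest probe set. The other genes named (Acta1, Birc5, Ccnb2, Cdc20, Ckm, Col18a1, Fabp4, Gata3, Grb10, Igf1r, Krt17, Krt35, Krt36, Krtap6-2, Lep, Mest, Mylpf, Nnat, Pecam1, Sft2d1, Sprr2b, Sprr2d, Tgm3) were chosen after their values were seen. The comparison and the lists were chosen with earlier results of these data known, and Sprr2g joined its list after its value was seen. Alternatives varied scaling, filter, offset, arrays, variance trend, weights, replicate block, sex covariates and P6 arrays.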

Additional observations from a re-analysis of the deposited data

Results flagged for a closer look

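Among 137 genes checked, 4 had 1 of the 5 wild-type P6 arrays far from the others, and chance alone would do so in about 1 in 20. Krtap5-4 was at 10.4564 (log2) on P6 replicate 3, below the others at 10.97 to 11.12, and Krtap12-1 at 9.21773 on replicate 4, below 9.88 to 10.02. Aurkb was at 8.78021 on replicate 1, below 9.20 to 9.34, and Pcna at 11.4966 on replicate 2, above 11.02 to 11.09. All 4 genes passed without that array. The age change of Sft2d1 differed between wild-type and DN-CLIM skin by -1.74192 on the log2 scale (adjusted p = 0.023 in limma), with a fall in wild type and a rise in DN-CLIM.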

How the results depend on the processing

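Of the 134 named genes past the threshold, 107 passed under every alternative that held their probe set, 19 to 21 alternatives per gene. Dimmer genes were absent from the stricter filter, and Fgf5 and Myh3 are counted by the fit without the filter. In these fits no named gene past the threshold changed sign. The main counts were 1290 in wild type (586 rises, 704 falls), 1664 in DN-CLIM and 1 for the difference between genotypes. With a stricter filter that kept 3106 probe sets, they were 830 in wild type with 436 falls and 966 in DN-CLIM. Against P6 arrays 4 and 5 alone, with fewer arrays, 798 passed (377 rises, 421 falls), and the difference was called at 4 probe sets. The difference was called at 0 with only the arrays compared, with no variance trend and against P6 arrays 1 to 3 alone, and the cause was not tested. Leaving out 1 array gave 861 to 1237 probe sets, with 386 to 575 rises (387 without P14 replicate 1 and 386 without replicate 3) and 475 to 672 falls. It gave 1093 (without DN-CLIM P14 replicate 2) to 1800 in DN-CLIM, and 0 to 2 for the difference. Centring arrays on their medians raised the share of rises from 45.4% to 52.7%, with 636 rises and 570 falls. Col1a1 (-0.18) passed under quantile normalization, at -0.38. The Acta1 change (0.03) turned to -0.083 against P6 arrays 4 and 5 alone, and over the fits without 1 array it ran from -0.025 (without P14 replicate 2) to 0.072 (without P14 replicate 3), with -0.012 without P6 replicate 3. Under the stricter filter the median of the fetal and neonatal list turned to 0.0035 and that of the erythroid list to -0.0933, with fewer members tested. In wild type alone P6 arrays 4 and 5 differed from arrays 1 to 3 at 6 probe sets. Replicate numbers did not pair the samples: deviations of same-numbered wild-type P6 and P14 arrays correlated at -0.013, -0.00013 and -0.073, and no array matched its own number best. With the replicate block 1487 passed (688 rises, 799 falls), 1817 in DN-CLIM and 1 for the difference, and Shh, Ptch1, Cdc20, Pmel and Camp did not pass (adjusted p 0.0517 to 0.0834). Dim probe sets are the noisiest, which limits Fgf5 and Myh3.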
